A study of Rattus norvegicus with 18 samples.

Results

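Livers of control male F344/NSlc rats were compared between day 84 and day 28 of a dosing study, with 3 control arrays at each day, 6 of the 18 arrays of the series. The arrays were chosen by their titles (vehicle, liver, D28 or D84), not by any measured value. The rats were bought at 5 weeks of age and kept for 1 week on basal diet, so they were about 10 weeks old at day 28 and about 18 weeks old at day 84 if dosing began at once. The comparison therefore spans 8 weeks in which young adult rats mature.

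The other 12 arrays come from rats of the same strain, sex and age that were gavaged daily with diethylnitrosamine (DEN, 4 mg/kg in saline), a liver carcinogen that damages DNA, or with carbon tetrachloride (CCl4, 100 mg/kg in corn oil), a solvent that injures hepatocytes, again with 3 arrays per compound and day. The titles call the controls vehicle rats, whereas the treatment protocol calls them untreated rats on basal diet, so whether they were gavaged is not known. Total RNA of whole liver was labelled with Cy3 and hybridised to 1-colour Agilent arrays. The labels give replicate numbers and no pooling, cage, litter or time of day of sampling.

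The liver of a male rat goes on changing after puberty: pulses of growth hormone set its male pattern of cytochrome P450 enzymes, hepatocyte division declines, and the deposition of matrix slows. It also runs a strong daily rhythm. In the clock, Bmal1 with Clock or Npas2 switches on the Per, Cry, Nr1d and Dbp genes, whose products feed back on Bmal1, so that Dbp and Bmal1 messages peak at opposite times of day, and hormones and feeding move many metabolic genes along with it.

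The 3 day 28 arrays correlated with each other at r = 0.993 to 0.994 over all genes tested, the day 84 arrays at 0.996 to 0.997, and arrays of different days at 0.986 to 0.990, so no control array stood apart. Between 47.2% and 51.2% of probes were well above background on each array, and no probe was saturated. Levels are given as log2 processed signal minus the 75th percentile of the same array, where 0 is that percentile and negative values are dimmer. That percentile was 169.8 to 181.5 signal units at day 28 and 196.8 to 207.1 at day 84, and it stood 0.16 higher at day 84 on the log2 scale relative to 10 spike-in probes. All control arrays of day 28 were on slide 1 and all of day 84 on slide 2, so in the controls the day, the slide and any difference in sampling time cannot be told apart. DEN arrays were split the same way. Replicates 2 and 3 of CCl4 at day 84 were on slide 3, which held no control array. Day differences over all CCl4 arrays therefore include that slide. Only CCl4 links slides 1 and 2: its replicate 3 of day 28 was on slide 2 with 1 of its day 84 arrays, while its other day 28 arrays were on slide 1. The difference between that array and the other CCl4 arrays of day 28 (the slide difference) and the day difference between the CCl4 arrays on slide 2 are given beside the results they touch. They rest on single arrays, and treated liver may not respond as control liver does. Replicate 3 of CCl4 at day 28 enters both, added in the slide difference and subtracted in the day difference. A deviation of that array alone therefore moves them in opposite directions, and they are not independent.

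Of 9854 genes tested, 1176 (11.9%) differed between day 84 and day 28 at an adjusted p under 0.05 by limma, and these are the genes called here. Of them 547 (5.55% of genes tested) were higher and 629 (6.38%) were lower at day 84, and 3066 genes had an unadjusted p under 0.05. The typical called change was modest, with a median size of 0.54 on the log2 scale, and 201 genes changed at least 2-fold (108 higher, 93 lower). In all 1176 called genes the 3 values of one day lay wholly above those of the other day, which held for 3777 of all genes (38.3%). A lack of overlap stated below for a called gene therefore adds nothing to its call. The balance of rises and falls depended on the scaling: 46.5% of called genes were higher here, against 79.6% when arrays were scaled on spike-ins, which moved the median of all genes from -0.04 to 0.12. Small uniform shifts of a gene group are therefore read relative to these medians. Without the second day 84 array 76 genes were called, without the first 205, and without the third 410; 482 were called without the second of day 28 and 618 without the first. With 3 arrays a day the precision is limited, and p-values measure only the spread between these samples.

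**Figure D1:**
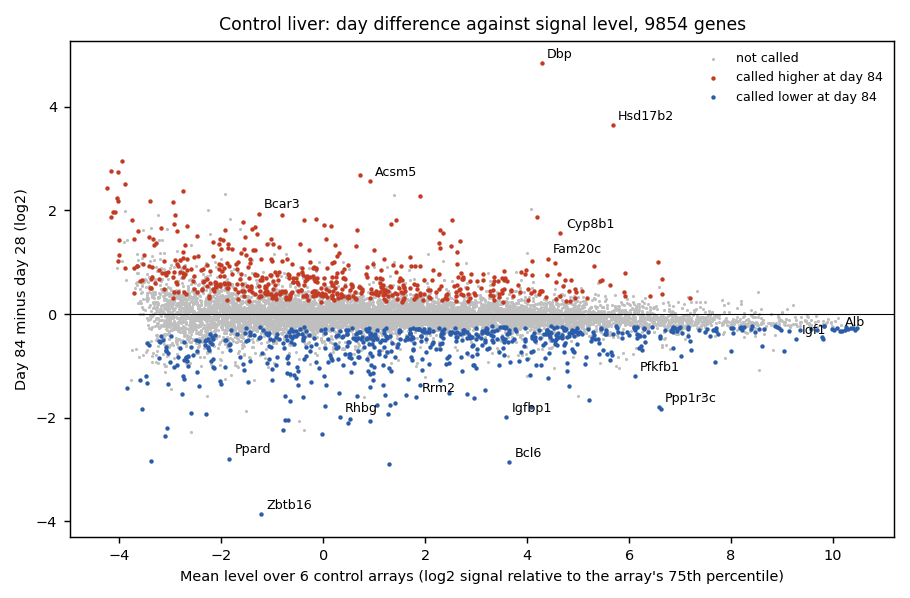
Difference between day 84 and day 28 in control liver (log2, vertical) against the mean level over the 6 control arrays (log2 signal relative to the 75th percentile of the array, horizontal), 1 point per gene for 9854 genes; red points were called higher and blue points lower. Dbp (4.84) and Hsd17b2 (3.64) stand above the other genes at high level, and Zbtb16 (-3.86) lies lowest. Among the called genes at the dim left edge, more are higher than lower.

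Rises and falls were unevenly spread over signal levels. In the dimmest 25% of genes by mean level 213 were called higher and 108 lower, whereas in the brightest 25% 65 were called higher and 228 lower, with a median difference of 0.02 in the dimmest and -0.10 in the brightest of these bins. Values also scattered more between day 28 arrays (median SD 0.12, the larger SD in 64.7% of genes) than between day 84 arrays (median SD 0.091).

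Genes of the circadian clock had the largest share of called members among the lists with at least 10 measured genes. Of 21 clock genes and outputs measured, 7 were higher and 6 were lower at day 84, against the background of 5.55% and 6.38% given above, and the members lay on both sides: Dbp, Tef, Per2, Per3, Nr1d1, Nr1d2 and Bhlhe40 rose, and Bmal1, Npas2, Cry1, Nfil3, Lonrf3 and Fkbp5 fell. The list's median difference was -0.12, beside -0.04 over all genes, because the members on both sides cancel. The list also had 7 members higher and 6 lower with spike-in and with quantile scaling. Over all genes tested 747 were higher and 192 lower with spike-in scaling, and 569 and 438 with quantile scaling. Under quantile scaling Npas2 lost its call (adjusted p = 0.0515) and Clock gained one (adjusted p = 0.0477). Fkbp5 is a glucocorticoid receptor target kept in this list because corticosterone follows the same rhythm. The labels state a 12 h light-dark cycle, and the part of sampling time in these differences was not tested.

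The proteins of the clock act on short promoter motifs: Bmal1 and its partners bind the E-box, the Dbp and Tef family and its repressor Nfil3 bind the D-box, and Nr1d1 and Nr1d2 repress through the ROR element. RefSeq promoters (build GRCr8, 250 bases before to 50 bases after each start) were found for 19 of the 21 genes and searched on both strands for CACGTG (E-box), TTATGTAA (D-box) and TAGGTCA (ROR element); the E-box reads the same on both strands, and none of the 3 contains another. The E-box was in 3 of the 19 promoters, beside 9.49% of the promoters of genes tested here and 6.65% of all 27457 promoters in the table. The D-box was in 1, beside 0.480% and 0.881%, and the ROR element in 1, beside 1.96% and 2.60%. The upstream windows that hold a match are shown because these 5 genes were all called; capitals mark the motif, and each sequence reads 5′ to 3′ on the strand of the gene.
Bmal1, ROR element, chr1:176766265-176766327, plus strand: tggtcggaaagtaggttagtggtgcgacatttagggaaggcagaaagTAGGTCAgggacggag
Per2, D-box, chr9:99497131-99497232, minus strand: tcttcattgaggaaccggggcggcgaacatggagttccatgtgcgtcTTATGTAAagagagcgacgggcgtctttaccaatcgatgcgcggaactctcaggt
Tef, E-box, chr7:115206582-115206681, plus strand: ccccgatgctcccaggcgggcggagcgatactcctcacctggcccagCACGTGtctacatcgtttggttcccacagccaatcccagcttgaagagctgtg
Bhlhe40, E-box, chr4:143174200-143174282, plus strand: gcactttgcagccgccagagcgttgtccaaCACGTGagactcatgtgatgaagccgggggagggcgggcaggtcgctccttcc
Lonrf3, E-box, chrX:120430901-120431000, plus strand: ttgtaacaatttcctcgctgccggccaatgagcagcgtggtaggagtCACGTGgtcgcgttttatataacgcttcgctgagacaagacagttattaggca
These matches only say that the letters are present in the window; Tef and Bhlhe40, which rose, and Lonrf3, which fell, all carry the E-box.

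Dbp encodes a transcription factor whose message swings more over the day than most others in liver. Its level was 1.72, 1.74 and 2.12 on the day 28 arrays and 6.16, 6.77 and 7.18 on the day 84 arrays. The groups were far apart, and Dbp was 28.7-fold higher at day 84 (log2 difference 4.84, SE 0.27, adjusted p = 0.00307). Its other tested probes gave 4.76 to 4.93.

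Bmal1, the activator at the core of the clock, moved the other way. It stood at 2.35, 2.19 and 2.20 at day 28 and at 1.03, 0.48 and -0.57 at day 84, so the day 28 rats were tightly grouped and the day 84 rats were lower and spread out. It fell by 1.94 on the log2 scale (SE 0.38, adjusted p = 0.0311). Npas2, which can take the place of Clock beside Bmal1, was at 1.73, 1.43 and 1.73 and then at 0.75, 0.48 and -0.56, a fall of 1.40 (SE 0.33, adjusted p = 0.0473). Replicate 3 of day 84 was lowest for both genes and highest for Dbp. Its level of Per2, a repressor of Bmal1, was also the highest, at -0.06 beside -0.85 and -0.60 in the other day 84 rats and -2.40, -1.99 and -2.15 at day 28. The day 84 values of Per2 lay above all day 28 values, and it rose 3.19-fold (log2 1.67, SE 0.22, adjusted p = 0.0129).

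Per3, another Per family member, was at -3.36, -3.78 and -3.42 at day 28 and at -1.96, -1.97 and -1.53 at day 84. It was 3.25-fold higher (log2 1.70, SE 0.17, adjusted p = 0.00645), though above background on only 2 arrays at day 28. Tef, a relative of Dbp, went from 1.97, 1.98 and 2.15 to 3.03, 3.28 and 3.38 and was 2.28-fold higher (SE 0.11 on the log2 scale, adjusted p = 0.00563). The groups of both genes were clearly apart. Nr1d1 and Nr1d2, the nuclear receptors that repress Bmal1, rose by 1.62 (SE 0.28, adjusted p = 0.0241) and 1.27 (SE 0.17, adjusted p = 0.0133), and Bhlhe40, an E-box repressor, rose by 1.70 (SE 0.31, adjusted p = 0.0263). Nr1d1 at day 28 was uneven, with 1 rat at 0.53 and the others at -0.49 and -0.50.

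Among the genes that fell, Cry1, the partner of Per proteins, was at 0.81, 1.44 and 1.07 at day 28 and at -0.16, 0.14 and -0.02 at day 84, a fall of 1.12 (SE 0.17, adjusted p = 0.0171). Nfil3, the repressor that competes with Dbp, fell by 0.86 (SE 0.14, adjusted p = 0.0210), and Lonrf3 by 1.26 (SE 0.18, adjusted p = 0.0163). Lonrf3 was above background on only 2 arrays at day 84. Fkbp5, a co-chaperone of the glucocorticoid receptor, was at 2.34, 2.35 and 2.12 and then at 0.64, 0.37 and 0.63, with no overlap, a fall of 1.73 (SE 0.11, adjusted p = 0.00358). The glucocorticoid targets Tsc22d3 (-0.80, adjusted p = 0.0839) and Sgk1 (0.85, adjusted p = 0.201) did not pass the test. Neither did Clock (-0.39, adjusted p = 0.0503), Cry2 (0.44, adjusted p = 0.185), Per1 (-0.12, adjusted p = 0.801), Wee1 (0.22, adjusted p = 0.518), Usp2 (-0.46, adjusted p = 0.327) or Noct (-0.13, adjusted p = 0.930). Noct, a deadenylase, differed widely between the day 84 rats, at 0.17, 2.75 and 3.76 beside 2.11 to 2.53 at day 28.

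Within slide 2 the CCl4 arrays, 1 per day, differed between days by 3.32 for Dbp and -2.96 for Bmal1, and the slide difference was 0.22 for Dbp and 0.12 for Bmal1. The other 6 clock genes that rose had slide differences of 0.37 to 0.62 in the direction of their rise (Per2 0.61, Nr1d1 0.56, Nr1d2 0.56, Bhlhe40 0.62, Tef 0.41, Per3 0.37) and within-slide day differences of 0.64 to 1.84. The other 5 that fell had slide differences of 0.00 to 0.18 and within-slide day differences from -1.95 for Npas2 to -0.30 for Fkbp5. Cry2, not called, was 0.44 in controls and -0.07 within slide 2. The part of the slide in the control differences was not tested. In DEN liver the day difference was 3.05 for Dbp and -3.34 for Bmal1, and in CCl4 liver 3.47 and -2.81. Levels at day 28 differed between groups that shared slide 1: Dbp was at 1.72 to 2.12 in controls and at 3.91 to 4.07 with DEN, while all 9 arrays of day 84 lay between 6.16 and 7.39.

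**Figure D2:**
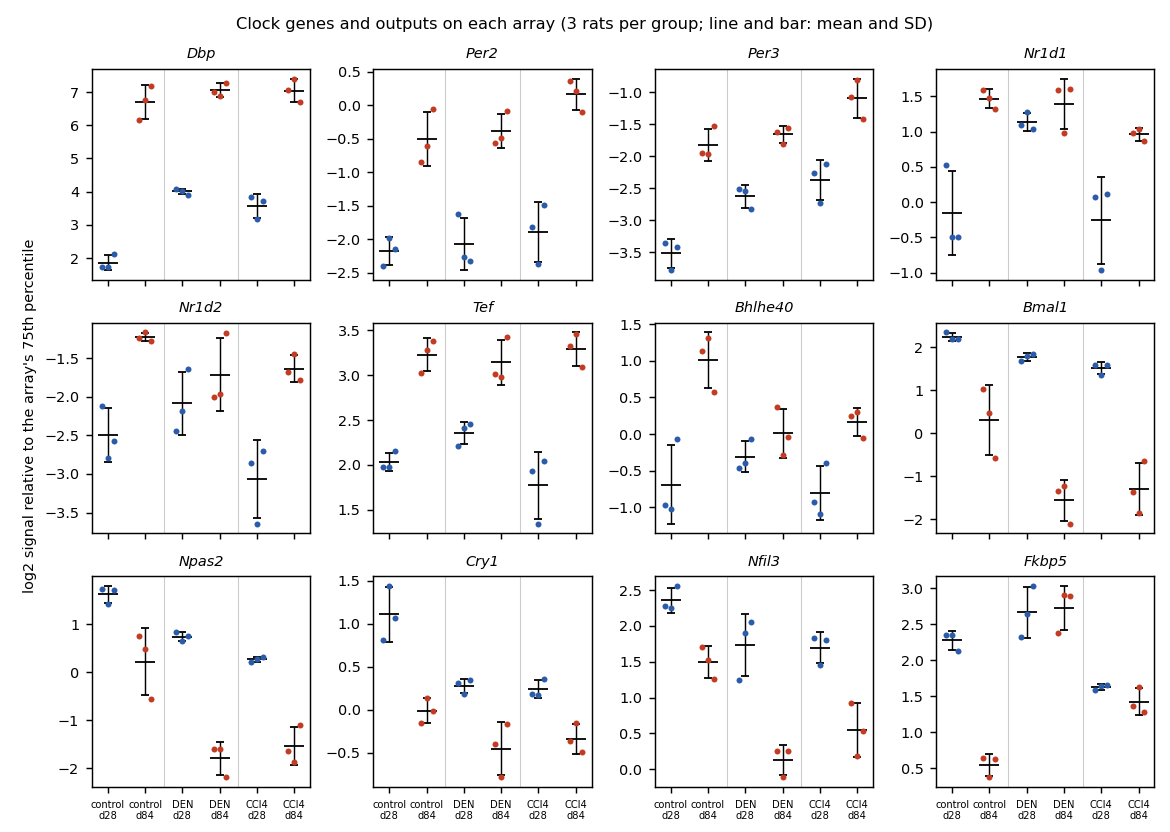
Level (log2 signal relative to the 75th percentile of the array) of 12 clock genes and outputs on each of the 18 arrays, with day 28 in blue, day 84 in red, and the mean and SD of each group of 3 as a black line and bar. Dbp is higher and Bmal1 lower at day 84 with each treatment, while Fkbp5 goes from between 2.12 and 2.35 to between 0.37 and 0.64 in the control columns.

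Of the 176 called genes named by the rule for this report, 16 kept their call under every alternative setting in which they were tested. The settings included scaling, filters, the slide as a fixed block, the replicate block and leaving out each array. A setting that dropped a gene did not count against it, and a filter could replace its probe by another. The 16 genes are the 5 rises Dbp, Hsd17b2, Bcar3, Fbp2 and Fam20c and the 11 falls Zbtb16, Ppard, Slc45a3, Rhbg, Fkbp5, Megf9, Lgalsl, Cited4, Pfkfb1, Sesn2 and Lnx2. With each array left out in turn, 31 of the 176 kept their call.

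Hsd17b2 encodes the hydroxysteroid dehydrogenase that oxidises oestradiol and testosterone to their weaker 17-keto forms. It stood at 3.67, 3.86 and 4.03 at day 28 and at 7.35, 7.41 and 7.74 at day 84. The groups lay far apart with little scatter, and the gene was 12.5-fold higher (log2 3.64, SE 0.14, adjusted p = 0.00118), with the smallest adjusted p of all genes. The slide difference was 0.95 and the day difference within slide 2 was 1.35 in CCl4 liver. Other members of the same enzyme family, looked at after this value was seen, did not rise: Hsd17b10 fell by 0.29 and Hsd17b12 fell by 0.48, and Hsd17b4 (-0.09), Hsd17b6 (-0.09), Hsd17b11 (-0.18) and Hsd17b13 (0.30) were not called.

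Fbp2, the muscle-type fructose bisphosphatase, was at -2.15, -2.22 and -2.19 at day 28 and at -0.94, -0.80 and -1.04 at day 84, a 2.39-fold rise (adjusted p = 0.00358), with a slide difference of -0.41 in the other direction. Fam20c, the Golgi kinase of secreted proteins, was at 3.75, 3.96 and 3.89 and then at 4.94, 4.98 and 4.90, a rise of 1.07 on the log2 scale (adjusted p = 0.00373), and its slide difference was -0.04. Bcar3, an adaptor in integrin signalling, went from -2.06, -2.64 and -2.003 to -0.23, -0.41 and -0.26, a 3.82-fold rise (adjusted p = 0.00563). In all 3 genes the day 84 values were higher than every day 28 value.

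Zbtb16, a zinc finger repressor that is a known glucocorticoid target, was at 0.68, 0.71 and 0.71 at day 28 and at -2.36, -3.29 and -3.83 at day 84. The day 28 values were almost equal and the day 84 values much lower, a 14.5-fold difference (log2 -3.86, SE 0.35, adjusted p = 0.00563). Its other tested probe showed only -0.66. Zbtb16 was above background on only 2 arrays at day 84, so the size of its fall is not fully measured. Ppard, the nuclear receptor PPAR delta, was at -0.47, -0.61 and -0.28 and then at -2.86, -3.08 and -3.80, 6.94-fold lower (adjusted p = 0.00517). It too was above background on only 2 arrays at day 84. Its other probes gave -3.005 to -2.003, the slide difference was 0.30, and the gene was also called lower in DEN (-1.43) and CCl4 liver (-1.85). Rhbg, an ammonium transporter of the hepatocytes around the central vein, was at 1.48, 1.55 and 0.92 and then at -0.61, -0.76 and -0.65, 3.98-fold lower (adjusted p = 0.00517).

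Pfkfb1, the liver enzyme that makes and degrades fructose 2,6-bisphosphate, is abundant and was at 6.63, 6.83 and 6.67 at day 28 and at 5.39, 5.48 and 5.66 at day 84, 2.30-fold lower (adjusted p = 0.00448). Lgalsl, a galectin-like protein, fell 2.57-fold from 0.79, 0.56 and 0.88 to -0.54, -0.69 and -0.63 (adjusted p = 0.00379), and its day differences with DEN (-1.76) and CCl4 (-1.37) were called too. Sesn2, a stress-induced inhibitor of mTORC1, fell 1.81-fold (adjusted p = 0.0124). The other falls of this set were Slc45a3 (-2.06), Megf9 (-1.58), the coactivator Cited4 (-1.24) and the ubiquitin ligase Lnx2 (-0.84), of which Lnx2 has a further probe with a value of the opposite sign (0.34).

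**Figure D3:**
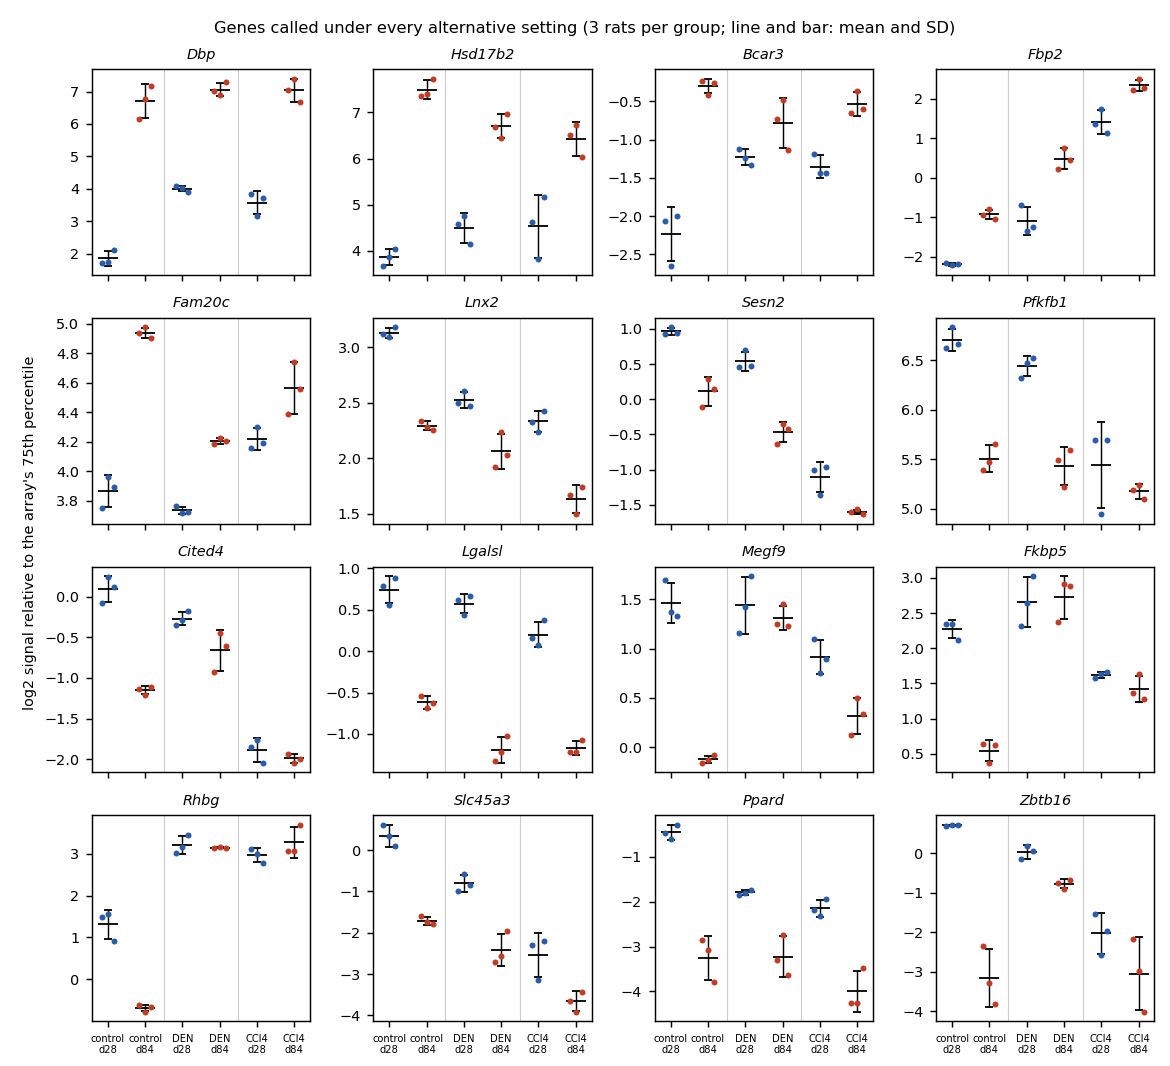
Level (log2 signal relative to the 75th percentile of the array) on each of the 18 arrays for the 16 genes called in controls under every setting in which they were tested. Genes are ordered from the largest rise to the largest fall, day 28 is blue and day 84 red. Black lines and bars give the mean and SD of each group of 3. In the control columns the 3 red and 3 blue points are apart in every panel, from Dbp (4.84) to Zbtb16 (-3.86).

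The 20 called genes with the largest fitted rises were Dbp, Hsd17b2, Kcng1, Trim31, Rundc3b, Pdzd4, Acsm5, Cda, Gsx2, Lpar3, Slc25a30, Nxnl1, Fut1, Anxa8, Ston1, Or52p1, Usp49, Bcar3, Nedd9 and Irx2. Many of them are dim. A probe was tested if it was well above background on all 3 arrays of at least 1 day, so a gene dim at day 28 could enter only by being higher at day 84. Kcng1, Trim31, Rundc3b, Cda, Gsx2, Lpar3, Nxnl1, Fut1, Anxa8, Ston1, Or52p1 and Usp49 were not well above background on any day 28 array, so their place among the rises is not measured and only a lower bound holds: the mean at day 84 over the dimmest signal that was well above background on each day 28 array, or over the gene's own signal where that was higher. Lpar3, a lysophosphatidic acid receptor, was at least 4.00-fold higher, Ston1 at least 3.29-fold and Anxa8, an annexin, at least 2.40-fold. Cda, cytidine deaminase, was at least 1.92-fold higher. In all, 39 called genes were not above background at day 28 and 6 at day 84.

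Acsm5, a mitochondrial medium-chain acyl-CoA synthetase, was well measured at both days. It stood at -0.14, 0.01 and -0.97 at day 28 and at 1.62, 2.29 and 2.68 at day 84, with no overlap. It rose 5.92-fold (log2 2.57, SE 0.35, adjusted p = 0.0143), with 2.45 and 2.46 from its other probes and a slide difference of 0.09. The docking protein Nedd9 rose by 1.92, from between -2.18 and -1.34 to between -0.15 and 0.41 (SE 0.24, adjusted p = 0.0121). Slc25a30, a mitochondrial carrier, rose by 2.28, but its values spread from -0.25 to 1.51 at day 28 and from 2.42 to 3.76 at day 84 (SE 0.53, adjusted p = 0.0440).

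Several rises were matched by the slide difference in CCl4 liver at a single day. Pdzd4, above background on all control arrays, rose by 2.68 in controls and its slide difference was 2.26. The homeobox gene Irx2, above background on 1 array at day 28, rose by 1.91 with a slide difference of 1.86. Its relatives Irx1 and Irx5, looked at after this value was seen, were above background on all control arrays. Irx1 rose by 1.81 (adjusted p = 0.00645) with a slide difference of 2.07. Irx5 rose by 1.78 (adjusted p = 0.00448) with a slide difference of -0.11. Among genes of fat metabolism the slide difference was the larger value for Bdh1 (1.34 and 2.30) and Pecr (1.34 and 1.68). Of the 547 genes called higher, 131 had a slide difference at least as large as their day difference, and of the 629 called lower, 44 did, genes dim at one day included. Over the genes called higher the median slide difference was 0.22 and the median day difference within slide 2 was -0.02, beside -0.03 and -0.07 over all genes tested. Over the genes called lower these medians were -0.03 and -0.20. Both measures share the CCl4 day 28 array on slide 2, with opposite sign. With the slide as a fixed block in a fit of all 18 arrays 73 genes were called, 64 of them among the 1176 and in the same direction, and 85.1% of the 1176 kept their sign.

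**Figure D4:**
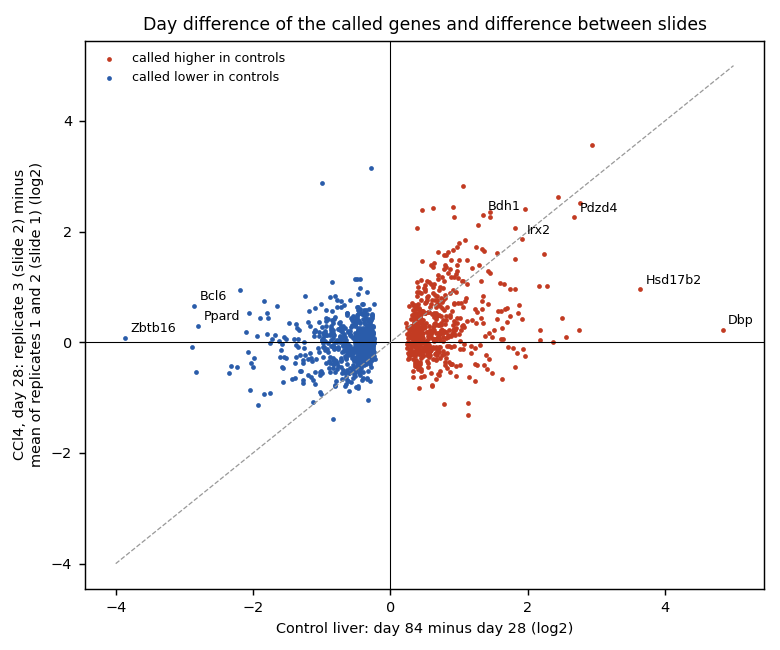
Slide difference in CCl4 liver at day 28 (replicate 3, on slide 2, minus the mean of the other 2, on slide 1; log2, vertical) against the day difference in control liver (log2, horizontal) for the 1176 called genes, red where called higher and blue where called lower; the dashed line marks equal values. Bdh1 lies above the line and Pdzd4 and Irx2 near it, whereas Dbp, Zbtb16, Bcl6 and Ppard lie near the horizontal axis.

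The 20 called genes with the largest fitted falls were Zbtb16, Bhlha15, Bcl6, Ropn1l, Ppard, Popdc2, Cyp26b1, Tnfrsf9, Ces2e, Hrk, Ankrd33b, Slc45a3, Lmod2, Pcp4l1, Igfbp1, Rhbg, Bmal1, Rec114, Cxcl13 and Slc10a6, of which Ropn1l, Popdc2 and Slc10a6 were above background on 0 arrays at day 84 and have only bounds (at least 3.45-fold, 3.52-fold and 2.17-fold lower). Bcl6, a transcriptional repressor that growth hormone lowers through Stat5 in male liver, was at 5.45, 4.81 and 4.96 at day 28 and at 2.49, 2.18 and 1.98 at day 84. The groups were well apart and the gene was 7.25-fold lower (log2 -2.86, SE 0.20, adjusted p = 0.00373), with -3.15 from its other probe and a slide difference of 0.66. Its day differences were -0.36 with DEN and 0.08 with CCl4, neither called.

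Igfbp1, the insulin-repressed binding protein of IGF1, stood at 5.17, 4.21 and 4.38 at day 28 and at 3.17, 2.18 and 2.42 at day 84, 3.98-fold lower (adjusted p = 0.0225). Cyp26b1, which breaks down retinoic acid, was at 1.60, 1.29 and 0.52 and then at -0.86, -0.92 and -1.78, 5.00-fold lower (adjusted p = 0.0175). Both genes had no overlap between days despite a scatter of about 1 unit within them. The related enzyme Cyp26a1, looked at after this value was seen, was high on a single day 28 array (2.18 beside 0.04 and -0.02) and at -1.65 to -1.41 at day 84, and it missed the threshold (adjusted p = 0.0585). Tnfrsf9, a receptor of activated lymphocytes, fell 4.72-fold (adjusted p = 0.00468) and also with DEN (-1.96). The acinar-type transcription factor Bhlha15 fell by 2.89 but with values between 1.68 and 4.11 at day 28 (SE 0.68, adjusted p = 0.0460).

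Gene lists of liver functions were then set beside the background of 5.55% called higher and 6.38% called lower. Most lists had more members lower than higher, above all cholesterol synthesis, P450 enzymes and hepatocyte products. Clock genes were frequent on both sides. With the slide as a fixed block, 1 higher and 1 lower gene were called in the clock list, and 1 lower each in the glycolysis, p53 and pericentral lists. That fit has larger errors, and the differences in it moved both ways. Some were no smaller than in the main fit: Bmal1 was at -2.05 (SE 0.67), Npas2 at -1.46, Idi1 at -1.15 and Cyp2b2 at -2.32. The clock rises were all smaller: Dbp was at 4.62, Per3 at 1.33, Bhlhe40 at 1.08, Per2 at 1.07, Nr1d1 at 1.05, Tef at 0.78 and Nr1d2 at 0.71. Outside the lists, Irx2 was at 0.05 and Pdzd4 at 0.42. List medians in that fit were -0.69 for cholesterol synthesis, -0.88 for P450 enzymes and -0.52 for hepatocyte products, but 0.12 for matrix and 0.15 for cell cycle genes. Without the second day 84 array the clock list had 3 rises and 1 fall, and the cholesterol, P450, matrix, cell cycle and hepatocyte product lists had 0 called members each by limma, in a fit with 76 calls in all.

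**Figure D5:**
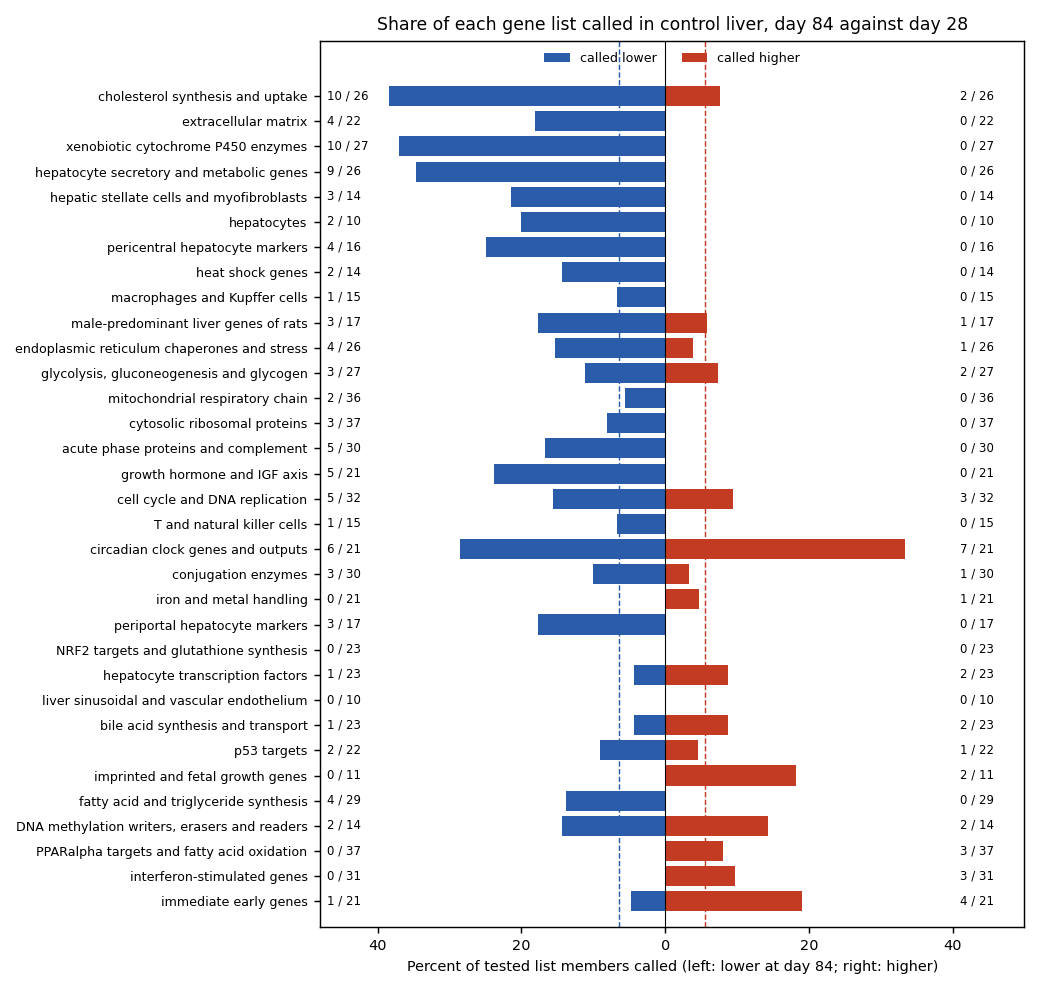
Percent of the measured members of each gene list called lower (blue, left) or higher (red, right) at day 84 in control liver, with the counts at the sides, for lists with at least 10 measured members ordered by their median difference; dashed lines mark the background over all genes tested (6.38% lower, 5.55% higher). Cholesterol synthesis (10 of 26) and P450 enzymes (10 of 27) have the largest shares of lower members, and the clock list (7 of 21) the largest share of higher members.

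Xenobiotic cytochrome P450 enzymes, which oxidise drugs and steroids, were measured for 27 genes, of which 0 rose and 10 fell by limma, with a median of -0.28. The strongest fall was in Cyp2b2, a phenobarbital-inducible enzyme, at 6.60, 6.36 and 5.17 at day 28 and 4.32, 4.43 and 4.41 at day 84 (log2 -1.66, SE 0.36, adjusted p = 0.0380). The day 28 rats varied widely and the day 84 rats hardly at all. Cyp3a9 fell by 0.99 (adjusted p = 0.0178), Cyp2c22 by 0.58 (adjusted p = 0.0337) and Cyp1a2, the main enzyme of caffeine oxidation, by 0.40 (adjusted p = 0.0374). Cyp2t1, Cyp2j3, Cyp2a2, Cyp2b3, Cyp2c11 and Cyp2c12 fell by 0.28 to 0.57. Cyp2e1, which activates CCl4, was at 0.25 and not called. The number of falls depended on the scaling, with 6 under quantile and 2 under spike-in scaling. Falls over all 9854 genes also dropped, from 629 to 438 and 192.

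Sex-biased genes follow growth hormone secretion in the rat. Of 17 male-predominant genes measured, 1 rose and 3 fell, and of 9 female-predominant genes 1 fell. Cyp2c11, the male-specific testosterone hydroxylase, was already at 9.78, 9.70 and 9.67 at day 28 and at 9.46, 9.46 and 9.38 at day 84, a fall of 0.28 (adjusted p = 0.0406) that was not called under median (-0.26), quantile (-0.08) or spike-in scaling (-0.12), nor with any array left out. Cyp2c12, its female counterpart, fell by 0.57 (adjusted p = 0.0409), which was not called under spike-in scaling (-0.41). Akr1c1 fell 3.47-fold (adjusted p = 0.0148), and Sult1c2, a sulfotransferase, rose 1.71-fold (adjusted p = 0.0106). Among 21 genes of the growth hormone and IGF axis, 5 fell and 0 rose by limma. Under quantile scaling 4 fell, and under spike-in scaling 2 fell, Bcl6 and Igfbp1, and 1 rose. Over all genes tested 438 fell under quantile scaling, and 192 fell and 747 rose under spike-in scaling. Igf1, the growth factor that the liver releases into blood, was at 9.54, 9.48 and 9.55 at day 28 and at 9.08, 9.06 and 8.98 at day 84, without overlap and a 1.40-fold fall (adjusted p = 0.0121), which was -0.33 and not called under spike-in scaling. Stat5a (-0.45) and Irs1 (-0.38) fell with Bcl6 and Igfbp1, while the growth hormone receptor Ghr (0.13) and Igfals (0.13) were not called. The Igf1 day difference was -1.30 with DEN (called) and 0.05 with CCl4 (not called), and its slide difference was 0.64.

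Imprinted and fetal growth genes did not fall as a list: of 11 measured, 2 rose and 0 fell by limma. Igf2 (-0.47) and H19 (-0.78) were not called and varied among day 28 rats, H19 at 0.01, -0.87 and -2.62. The rise of the RNA-binding protein gene Igf2bp2 (1.55) stood beside a slide difference of 1.61 and a further probe at -0.83, and that of Dlk1 (0.72) beside a slide difference of 0.996.

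Cholesterol synthesis was lower at day 84 along much of the pathway. Of 26 genes measured, 10 fell and 2 rose, with a median of -0.40 beside -0.04 over all genes. Sqle, the squalene epoxidase, was at 3.43, 2.53 and 2.84 at day 28 and at 1.76, 1.39 and 1.82 at day 84, 2.42-fold lower (adjusted p = 0.0295). Idi1 (-0.98), Acat2 (-0.98), Pmvk (-0.90), Tm7sf2 (-0.88), Lss (-0.78), Cyp51 (-0.71), Fdft1 (-0.62) and Dhcr7 (-0.59), all enzymes of the route from acetyl-CoA to cholesterol, fell as well. Hmgcs1, an early enzyme of the pathway, did not pass the test (-0.48, adjusted p = 0.113).

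In CCl4 liver the cholesterol list had 8 members higher and 1 lower at day 84 (background 1.39% and 1.58%), and in DEN liver 1 higher and 11 lower (background 12.8% and 27.7%). The 10 falls in controls were 10 under quantile and 6 under spike-in scaling, beside 438 and 192 falls over all genes tested.

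Bile acid synthesis had 3 called enzymes, of which Cyp8b1 and Cyp7b1 rose and Cyp27a1 fell. Cyp7a1, the rate-limiting enzyme of the classic pathway, was at 3.37, 1.66 and 2.77 and then at 2.33, 2.04 and 3.15, overlapping (-0.10, adjusted p = 0.912). Cyp8b1, which makes the 12-hydroxylated cholic acid, was at 4.42, 3.20 and 4.00 and then at 5.41, 5.26 and 5.63, 2.96-fold higher without overlap (adjusted p = 0.0302). Cyp7b1, the oxysterol hydroxylase of the alternative pathway, rose 2.02-fold (adjusted p = 0.0241), and Cyp27a1, the mitochondrial enzyme that starts that pathway, fell 1.71-fold from 5.94, 5.68 and 5.78 to 4.98, 4.96 and 5.15 (adjusted p = 0.0116). These were the 2 rises and the 1 fall among 23 genes measured. The bile acid sensor's target Nr0b2 was at -1.60 and was not called.

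In carbohydrate metabolism, 27 genes were measured, of which 2 rose and 3 fell. Ppp1r3c, a subunit that brings a phosphatase to glycogen, was at 7.59, 7.50 and 7.39 and then at 5.00, 5.75 and 6.34, 3.47-fold lower (adjusted p = 0.0249). The day 84 rats differed by more than 1 unit, yet all were lower. Pck1, which opens gluconeogenesis, fell by 0.52 (adjusted p = 0.0178) with Pfkfb1. Slc2a2, the liver glucose transporter, rose by 0.34 (adjusted p = 0.0358), and the rise of the glycogen phosphorylase Pygl (0.63, adjusted p = 0.0148) stood beside a slide difference of 1.43.

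Fat metabolism showed few changes. Among 29 genes of fatty acid and triglyceride synthesis 4 fell and 0 rose by limma, with a median of -0.01. Lpin1, a phosphatidate phosphatase and coactivator, was at 1.86, 1.88 and 2.06 and then at -0.39, 0.21 and 0.72, 3.37-fold lower (adjusted p = 0.0171). Acss2 (-1.04), the lipid droplet gene Cidec (-0.49) and Mlxipl (-0.40), the carbohydrate-responsive transcription factor, fell too, whereas Fasn (-0.10) was not called. Among 37 targets of PPAR alpha, the receptor that drives fatty acid oxidation, 3 rose and 0 fell by limma. Cpt1a, the gate of fatty acids into mitochondria, rose 1.76-fold from 3.42, 3.29 and 3.73 to 4.19, 4.24 and 4.45 (adjusted p = 0.0204), and Decr1 rose by 0.56 (adjusted p = 0.0225). Bdh1, the remaining rise, is among the genes with a large slide difference.

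Genes of cell division were lower in part. Of 32 measured, 5 fell and 3 rose, with a median of -0.13. Rrm2, which supplies deoxynucleotides for DNA synthesis, was at 2.79, 2.58 and 2.51 at day 28 and at 1.0035, 0.41 and 1.66 at day 84, 3.04-fold lower (adjusted p = 0.0284). Cdk1, the mitotic kinase, was at 1.71, 1.65 and 1.52 and then at 0.22, -0.12 and 0.93, 2.43-fold lower (adjusted p = 0.0321). Tk1 (-1.09), Plk1 (-0.99) and the proliferation marker Mki67 (-0.67) fell as well. In each of these genes the second day 84 array was the lowest and the third the highest of that day, and no day 84 value reached the day 28 range. Cyclins of mitosis such as Ccna2 (-1.03) and Ccnb1 (-1.03) did not pass the test. The 3 rises were in G1 and S phase genes, Ccnd1 (0.82, adjusted p = 0.0300), Cdk2 (0.53) and Gins2 (0.90). In CCl4 liver 14 members were lower at day 84 and 0 higher (background 1.58% and 1.39%). In DEN liver 15 were higher and 0 lower (background 12.8% and 27.7%).

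Matrix genes were lower too, with 4 falls and 0 rises by limma among 22 measured, and a median of -0.37. Under quantile scaling 3 fell and under spike-in scaling 1, Eln, beside 438 and 192 of all genes tested. Col4a1 changed sign with the slide as a fixed block (0.16). Eln, elastin, was at 0.19, 0.44 and -0.52 and then at -1.51, -1.45 and -1.66, 2.99-fold lower (adjusted p = 0.0176). Sparc (-0.70), Col4a1 (-0.57) and Lamc1 (-0.36) fell. The fibrillar collagens Col3a1 (-0.85, adjusted p = 0.0620) and Col1a1 (-0.19, adjusted p = 0.382) did not pass the test. In bulk liver, fewer cells of a type and less RNA per cell cannot be told apart. Of 14 stellate cell and myofibroblast markers measured out of 15, 3 fell (Hand2, Vim and Rgs5), and the summed signal of the list, relative to the 75th percentile of each array, was 20.3 to 31.9 at day 28 and 20.8 to 24.4 at day 84. Its part in the matrix values was not tested.

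Markers of the labelled tissue were high on every array: the 10 hepatocyte markers summed to 5359 to 5511 times the 75th percentile at day 28 and 4611 to 4806 at day 84, and Alb was at 9.93 to 10.32. Of 15 macrophage and Kupffer cell markers 1 fell (Cd14, -0.79), and the list summed to 389 to 481 and 358 to 405. Of 15 T and natural killer cell markers 1 fell (Cd4, -0.51), and of 6 B cell markers 1 rose. In the lists of neutrophils (5 measured of 12) and endothelium (10 of 16) 0 were called by limma. Of 9 cholangiocyte markers 1 rose, and Krt19 was at -0.78, not called. The erythroid list had 1 fall (Epb42), the pancreatic list 1 rise (Ctrb1, with a slide difference of 1.33), and the adipose list 1 rise (Pparg, 0.91) and 2 falls (Fabp4, not above background at day 84, at least 1.71-fold lower, and Cidec).

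Very abundant hepatocyte messages were slightly lower together. Of 26 secretory and metabolic genes 9 fell and 0 rose by limma, with a median of -0.27. Alb, albumin, was at 10.32, 10.30 and 10.25 and then at 9.98, 9.98 and 9.93, 1.26-fold lower (adjusted p = 0.0231). Tdo2, the tryptophan dioxygenase, fell the most in this list (-0.94, adjusted p = 0.0283). Ahsg, Apoa2, Apoc3, Fah, Fgb and Serpina1 fell by 0.26 to 0.33. Under spike-in scaling 1 of these genes was called lower and under quantile scaling 2, beside 192 and 438 of all genes tested. The list medians were -0.11 and -0.05. The acute phase and complement list (5 of 30 lower) had 0 called and medians of 0.00 and 0.02 under those scalings, and so did cytosolic ribosomal proteins (3 of 37 lower here, median -0.17), with medians of -0.01 and 0.00, and respiratory chain genes (2 of 36, median -0.17), with -0.01 and -0.03. Over all genes the median was 0.12 under spike-in and -0.01 under quantile scaling, beside -0.04 here. Under spike-in scaling the median of each of these lists lay below that of all genes. Under quantile scaling hepatocyte products and respiratory chain genes lay slightly below it and the other lists slightly above it. The size of these shifts, and for some lists their direction, depended on the scaling.

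Zonal genes included Rhbg and Ahr (-1.17, adjusted p = 0.0121), the dioxin receptor, among 4 falls of 16 pericentral markers, while glutamine synthetase, Glul, was not called (-0.28). Of 17 periportal markers 3 fell, among them the urea cycle enzyme Ass1 (-0.71, adjusted p = 0.0341). Of 23 hepatocyte transcription factors 2 rose, among them Gata4 (0.47), and Nfia (-0.40) fell, and Hnf4a (-0.34) and Foxa2 (1.16) were not called. Conjugation enzymes had 1 rise and 3 falls among 30 (Sult1a1 -0.70, Sult1b1 -0.66, Ugt2a3 -0.85).

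Stress and signalling lists had few called genes. Of 23 NRF2 targets 0 were called by limma, and Nqo1 (-0.66) and Hmox1 (-0.04) did not pass the test. Of 26 endoplasmic reticulum stress genes Chac1 rose (1.35) and Atf6, Dnajb9, Hsp90b1 and Selenos fell by 0.35 to 0.96. Of 22 p53 targets 1 rose (Aen) and 2 fell (Sesn2, Tp53inp1), and Cdkn1a was at -0.03. Of 14 heat shock genes the mitochondrial chaperones Hspd1 and Hspe1 fell by 0.32 each. Of 21 immediate early genes Atf3 (1.64), Ccn1 (1.44), Ier3 (0.92) and Fosb (0.70) rose and Gadd45b (-0.53) fell, with a slide difference of 1.22 for Fosb. Of 31 interferon-stimulated genes 3 rose, Cxcl10 (1.63), Usp18 (0.50) and Dhx58 (0.39), and 26 of 31 differences were positive with a median of 0.13, while 0 of 8 class II antigen presentation genes were called by limma.

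In the DNA methylation list Tet3, which oxidises 5-methylcytosine, rose 1.62-fold (adjusted p = 0.0156) and Mat2a rose by 0.30, whereas Gnmt and Ahcy, which use and recycle the methyl donor S-adenosylmethionine, fell by 0.71 and 0.39. Dnmt1, the maintenance methyltransferase, was at 0.08 and not called (14 genes measured). Of 4 genes known from the study itself, Nfia fell by 0.40, although a further Nfia probe gave 0.27, and Ldlrad4 (-0.27), Proc (-0.19) and Cdh17 (0.35) were not called.

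Treated rats of the same ages, measured on other arrays, shared some of the control changes. With DEN 3988 genes (40.5%) were called between day 84 and day 28, 12.8% higher and 27.7% lower. Of the genes called higher in controls, 180 were also higher with DEN, which is 32.9% of the control list and 14.3% of the DEN list. Of those called lower, 332 were also lower, 52.8% and 12.2% of the lists, and 90 genes were called in opposite directions. With CCl4, 293 genes (2.97%) were called, 1.39% higher and 1.58% lower. Of these, 23 were shared higher (4.20% of the control list, 16.8% of the CCl4 list), 30 shared lower (4.77% and 19.2%) and 13 were opposite. The shared count of 53 with CCl4 was 157 without the second CCl4 array of day 28 and 0 without the first of day 84.

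Called in the same direction in all 3 comparisons were 28 genes. The 13 higher ones were Anxa8, Dbp, Dock9, Fbp2, Grin2c, Hsd17b2, Irx2, Klf16, Per2, Per3, Slc20a1, Tef and Tpd52l1, and the 15 lower ones were Acot5, Bmal1, Cd200l1, Clpx, Cyria, Lgalsl, Lnx2, Lonrf3, Lsm11, Nfil3, Npas2, Ppard, Rnf8, Srms and Tp53inp1. Clock genes make up 8 of the 28. Among the others, Klf16, a zinc finger factor, had nearly equal differences of 1.31, 1.31 and 1.13 in control, DEN and CCl4 liver, with a slide difference of -0.06. Rnf8, a ubiquitin ligase of the DNA damage response, was at 4.49, 4.34 and 4.46 and then at 3.60, 3.53 and 3.58 in controls, and its differences were -0.86, -0.94 and -0.86. Tpd52l1 rose by 1.71, 1.96 and 1.22. Slc20a1, a phosphate carrier, and Grin2c, a glutamate receptor subunit, rose by 0.55 and 0.87 in controls and by 1.76 and 4.71 with DEN.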

How the data were processed

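The deposited scanner files hold one spot intensity per probe and array, which the submitters' processing notes trace to version 10.7.1.1 of Agilent's Feature Extraction software; its processed signal is background-subtracted and detrended. The deposited value table holds linear ratio values, near the processed signal over the 75th percentile of its array; all its probes matched that scale to within 0.01 log2 after one constant per array, and it served as an alternative only.

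Of 62976 spots, 1439 controls and 18 probes with outlier flags were left out. Levels are log2 processed signal minus the 75th percentile of each array. Probes were kept where they were well above background on all 3 control arrays of at least 1 day; 28206 probes matched 15642 genes through RefSeq accessions (build GRCr8); 33331 probes were unmatched. Each gene is represented by its probe with the highest mean over the 6 control arrays, and its other tested probes are given where they disagree. The 6 control arrays were fitted with limma 3.58.1 in R 4.3.3 (lmFit and eBayes), and p-values were adjusted by Benjamini-Hochberg over 9854 genes, with a threshold of 0.05. DEN and CCl4 day differences were fitted on their own arrays, and the difference between day differences in a fit of all 18. The procedure was tested on simulated data. Figures were drawn with matplotlib 3.10.9.

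By rule, the text could name the 20 largest called rises and falls without overlap, the 20 genes with the smallest adjusted p, every called list member, and a few uncalled members of each list as values; the genes called in all 3 comparisons, and the further uncalled or related genes given as values, were chosen after their values were seen. The members and lists were chosen with earlier results of these data known. Same-numbered control arrays of both days deviated together with correlations of 0.02, 0.05 and -0.12, so the numbers do not pair the rats. Alternatives were other background correction, filters, scalings, slide blocks, a replicate block, all probes, the deposited value table and leaving out each array. Some genes are not reported here.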

Additional observations from a re-analysis of the deposited data

Results flagged for a closer look

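For 41 genes (clock genes and the genes called in all 3 comparisons) the day difference in treated liver was tested against that in control liver as an interaction in the limma fit of all 18 arrays. The genes were chosen with the control difference in view, and a positive value means a higher day difference in treated liver. With DEN 10 genes passed and with CCl4 5 did, by p-values adjusted over all genes tested. The share of all genes that passed the same interaction test is not given, so whether these counts exceed it was not tested. The control arrays that served to choose the genes called in all 3 comparisons also entered the interaction.

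The day difference of Dbp was smaller in treated liver, by -1.79 with DEN (adjusted p = 0.00455) and -1.37 with CCl4 (adjusted p = 0.0302), and that of Hsd17b2 by -1.44 (adjusted p = 0.0259) and -1.75 (adjusted p = 0.0188). For Fkbp5, which fell in controls, the interaction was 1.79 with DEN (adjusted p = 0.000649) and 1.52 with CCl4 (adjusted p = 0.00338). With DEN, Bhlhe40 (-1.38, adjusted p = 0.0250) and Nr1d1 (-1.36, adjusted p = 0.0360) had lower day differences than in controls. Grin2c (3.84, adjusted p = 2.68e-05), Ppard (1.37, adjusted p = 0.0221), Slc20a1 (1.21, adjusted p = 0.00358), Wee1 (1.15, adjusted p = 0.00568) and Lnx2 (0.37, adjusted p = 0.0495) had higher ones. With CCl4, Per1 (2.18, adjusted p = 0.00905) and Tsc22d3 (1.26, adjusted p = 0.0450) had higher day differences than in controls.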

How the results depend on the processing

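The 1176 called genes became 1513 with normexp background correction, 1173 with a filter on all 6 arrays, 1095 with median scaling, 1007 with quantile normalization, 939 with spike-in scaling, 1125 in a fit of all 18 arrays, 1321 over all probes and 1181 with the deposited value table. They became 240 without a filter on dim probes, 427 with the slide as a random block and 73 with it as a fixed block, and between 76 and 906 with 1 control array left out. With a replicate block 258 genes were called; the numbers do not pair the rats. The share called higher was 43.5% with normexp, 55.3% with median scaling, 56.5% with quantile normalization, 79.6% with spike-ins, 60.8% without the filter, 52.1% with the fixed slide block, 59.7% with the replicate block and 52.3% to 62.0% with 1 array left out. Genes shared with DEN ranged from 42 to 513 and with CCl4 from 0 to 157 with 1 array left out, and 222 were shared with CCl4 in the fit of all 18 arrays. Signs reversed under quantile normalization for Hp (0.015) and Rplp0 (0.0049), and with the fixed slide block for Bdh1 (-0.96), Col4a1 (0.16), Ctrb1 (-0.45), Dlk1 (-0.28), Epb42 (0.29), Fosb (-0.52), Gsx2 (-0.18), Igf2bp2 (-0.0598), Kcng1 (-0.61), Or52p1 (-0.45), Pecr (-0.34), Pygl (-0.80), Rgs5 (0.70) and Vim (0.32). The cause of these changes was not tested. Probes not above background have no measured level at that day, and 3 arrays a day limit what can be called.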
